A study of Bos taurus with 30 samples.

Results

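HOX genes encode homeodomain transcription factors that are grouped in the HOXA, HOXB, HOXC and HOXD clusters. The genes described here were all genes of the count tables whose symbol is HOX followed by a cluster letter and a paralogue number. They were 35 of 27607 genes, with 11 in HOXA, 8 in HOXB, 9 in HOXC and 7 in HOXD. All 35 were among the 39 HOX genes that RefSeq lists for the bovine assembly ARS-UCD2.0, and the other 4 (HOXB1, HOXB13, HOXD1 and HOXD12) were not analysed here.

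Within a cluster, HOX genes lie in the order of their paralogue numbers, and they are switched on along the embryo in the same order, low numbers towards the head and high numbers towards the tail. In the embryonic Müllerian duct, which forms the female reproductive tract, HOXA9 is known for the oviduct, HOXA10 for the uterus, HOXA11 for the lower uterus and cervix, and HOXA13 for the vagina. HOXA10 and HOXA11 are also expressed in the adult endometrium, where they are known for their part in the receptivity of the uterus to the embryo. HOX proteins bind DNA together with cofactors of the PBX, MEIS and PKNOX families, and their clusters are kept silent by Polycomb proteins and active by Trithorax proteins.

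The cells were primary endometrial cells from uteri of nonpregnant cows (*Bos taurus*) in the early luteal phase. Epithelial cells grew in the upper and stromal enriched cells in the lower chamber of a microfluidic device, with a porous membrane between them, and medium flowed through the device for 72 hours. In the glucose experiment, the medium held 5 mM or 50 mM glucose, where 5 mM was the control. In the insulin experiment, the medium of every group held 5 mM glucose together with the vehicle (acetic acid in PBS), 1 ng/mL insulin or 10 ng/mL insulin. Both cell types were sequenced at each of these conditions in 3 biological replicates, which gave 10 groups and 30 libraries, 12 in the glucose and 18 in the insulin experiment. The labels do not say which animals gave which replicate, so the p-values below measure the spread between these replicates only. Both fractions had been separated by filtration and plating time, not by a marker, so a library of either cell type could hold some cells of the other.

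The total of counted reads was 13493503 to 16647701 per library in the glucose and 8826470 to 13214728 in the insulin experiment. Levels are given as CPM, the count scaled to a library total of 1000000, and a count of 0 allows up to 3 counts, or 0.18 to 0.34 CPM, for counting error only. The 12 epithelial markers (KRT7, KRT8, KRT18, KRT19, EPCAM, CDH1, CLDN3, CLDN4, CLDN7, ESRP1, ELF3 and GRHL2) were all called higher in epithelial cells in each of the 3 comparisons of the insulin experiment, and 11 of them at 5 mM but only 1 at 50 mM glucose. The 12 stromal markers (VIM, COL1A1, COL1A2, COL3A1, PDGFRA, PDGFRB, DCN, LUM, TWIST1, TWIST2, THY1 and FBN1) were called higher in stromal cells in every comparison. Stromal replicate 3 at 50 mM glucose held the epithelial markers at a median of 65.3% of their epithelial mean and went against its label in part, while the other stromal libraries were between 0 and 13.5%. The epithelial library of replicate 2 at 5 mM held the epithelial markers at a median of 129% of their mean, and in the other epithelial libraries they were at 86.4 to 108%. Its markers did not all go 1 way. KRT18 was at 1790 CPM, beside 444 to 859 CPM in the other epithelial libraries of the glucose experiment. EPCAM was lower than in those libraries (149 CPM beside 378 to 478 CPM), and so was CDH1 (436 CPM beside 534 to 691 CPM). Markers of smooth muscle and pericytes (MYH11, DES, CNN1, RGS5 and MCAM) summed to 241 to 2960 CPM in stromal and 6.57 to 279 CPM in epithelial libraries. Most of the stromal sum was DES (102 to 2540 CPM) and CNN1 (105 to 393 CPM), both called higher in stromal cells in all 5 comparisons. MYH11, RGS5 and MCAM had at most 14.4, 4.44 and 37.9 CPM in stromal libraries. MYH11 was called higher in stromal cells in 1 comparison, MCAM was not called and RGS5 was not tested. The 4 endothelial markers that were matched summed to 16 to 76.9 CPM in the epithelial libraries and reached 2.66 to 20.3 CPM in stromal ones. Most of the epithelial sum was VWF, with 15.4 to 76.1 CPM, which was called higher in epithelial cells in all 5 comparisons. The others did not go with it: TEK was called higher in stromal cells in 1 comparison, PECAM1 was not called and CDH5 was not tested. The 3 immune markers summed to 2.23 to 12.4 CPM and 2.70 to 16.8 CPM.

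The 2 cell types differed in which HOX genes were high. In epithelial cells, the HOXB genes and HOXA2 to HOXA5 were high, and in stromal cells HOXA7 to HOXA11, HOXC6, HOXC13 and HOXD3 to HOXD11. In the insulin experiment, the summed level of the 8 HOXB genes was 121 to 172 CPM (median 134) in the 9 epithelial libraries and 2.17 to 12.3 CPM (median 3.65) in the 9 stromal libraries. HOXA2 to HOXA5 summed to 66.6 to 102 CPM (median 83.7) in epithelial and 5.57 to 14.1 CPM (median 9.38) in stromal libraries. HOXA7 to HOXA13 went the other way, with 3.07 to 8.71 CPM (median 5.10) in epithelial and 68.2 to 99.5 CPM (median 88.5) in stromal libraries. The HOXD genes summed to 0.615 to 5.88 CPM (median 3.23) and 48.0 to 59.6 CPM (median 52.4), and the HOXC genes to 2.28 to 8.25 CPM (median 3.38) and 21 to 30.0 CPM (median 26.2), in epithelial and stromal libraries, respectively. The sums of that experiment did not overlap between the cell types, but HOXA was split at these numbers with its levels known, so the lack of overlap of its 2 parts is a description of the split. In the glucose experiment, HOXA2 to HOXA5 overlapped. They summed to 53.8 to 91.1 CPM (median 68.9) in epithelial and 15.3 to 59.4 CPM (median 22.0) in stromal libraries. The 59.4 CPM was that of stromal replicate 3 at 50 mM, and the other stromal libraries had 15.3 to 31 CPM. HOXC overlapped as well, with 2.22 to 9.97 CPM and 5.32 to 36.4 CPM. The sums of HOXB, HOXA7 to HOXA13 and HOXD did not overlap there. Added over all 35 genes, the level in the insulin experiment was 222 to 271 CPM in the epithelial libraries. The stromal ones had 158 to 208 CPM there. With glucose these totals overlapped, since epithelial libraries ranged from 175 to 230 CPM and stromal ones from 132 to 215 CPM.

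**Figure D1:**
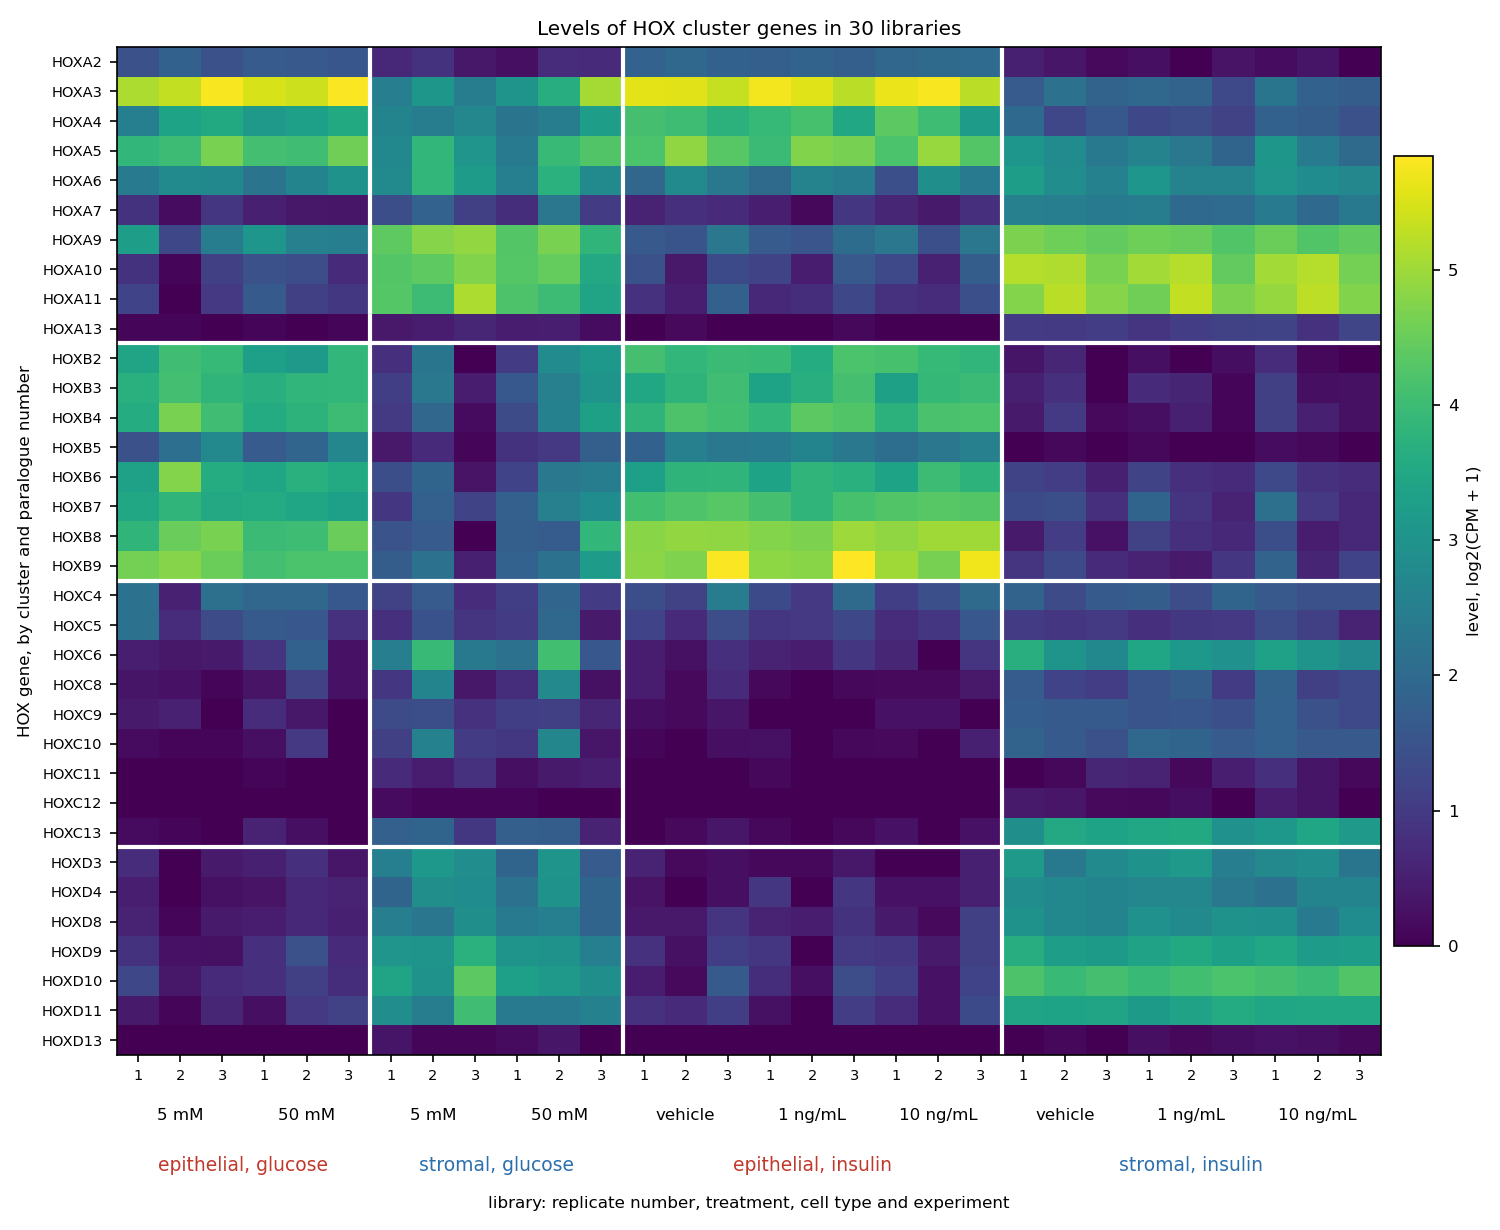
Level of HOX genes (rows, by cluster and paralogue number) in each of the 30 libraries (columns, by cell type, experiment, treatment and replicate number), as log2(CPM + 1) in colour. The HOXB rows and HOXA3 to HOXA5 are bright in epithelial libraries, HOXA9 to HOXA11 and HOXD3 to HOXD11 in stromal libraries, and stromal replicate 3 at 50 mM glucose carries both patterns.

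To ask which single genes differed, epithelial cells were compared with stromal cells at each condition with edgeR's quasi-likelihood test on the counts of all genes, with the replicate number as a block. A gene was called at an adjusted p under 0.05 and a log2 fold change beyond 0.1, and values above 0 stand for higher levels in epithelial cells. Of the 35 genes, 32 passed the filter on low counts in at least 1 comparison and 29 in all 5, and HOXC11, HOXC12 and HOXD13 passed in none. In the vehicle group, 29 of 32 HOX genes tested were called, with 13 higher in epithelial cells and 16 in stromal cells, while 55.2% of all genes tested were called (27.8% higher in epithelial and 27.3% in stromal cells). At 1 ng/mL insulin, 28 of 31 were called (13 and 15), with 58.9% of all genes (29.6% and 29.3%). At 10 ng/mL insulin, 28 of 31 were called (13 and 15), with 54.4% of all genes (27.1% and 27.3%). At 5 mM glucose, 18 of 30 were called (6 and 12), with 21.1% of all genes (10.5% and 10.6%), and at 50 mM glucose 17 of 30 (6 and 11), with 17.3% of all genes (6.39% and 10.9%). The number called higher in epithelial cells at 50 mM was 1 without the replicate block and 2 with all libraries of the experiment in a single fit. The direction of a called gene was the same in every comparison that called it: 13 genes were called higher in epithelial cells and 16 in stromal cells, 0 were called in both directions, and HOXA6, HOXC4 and HOXC5 were never called. The members' median log2 fold change lay between -1.39 and -0.17 over the 5 comparisons, and that of all genes tested between -0.01 and 0.03. In such bulk libraries, fewer cells that express a gene and less RNA per cell cannot be told apart.

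**Figure D2:**
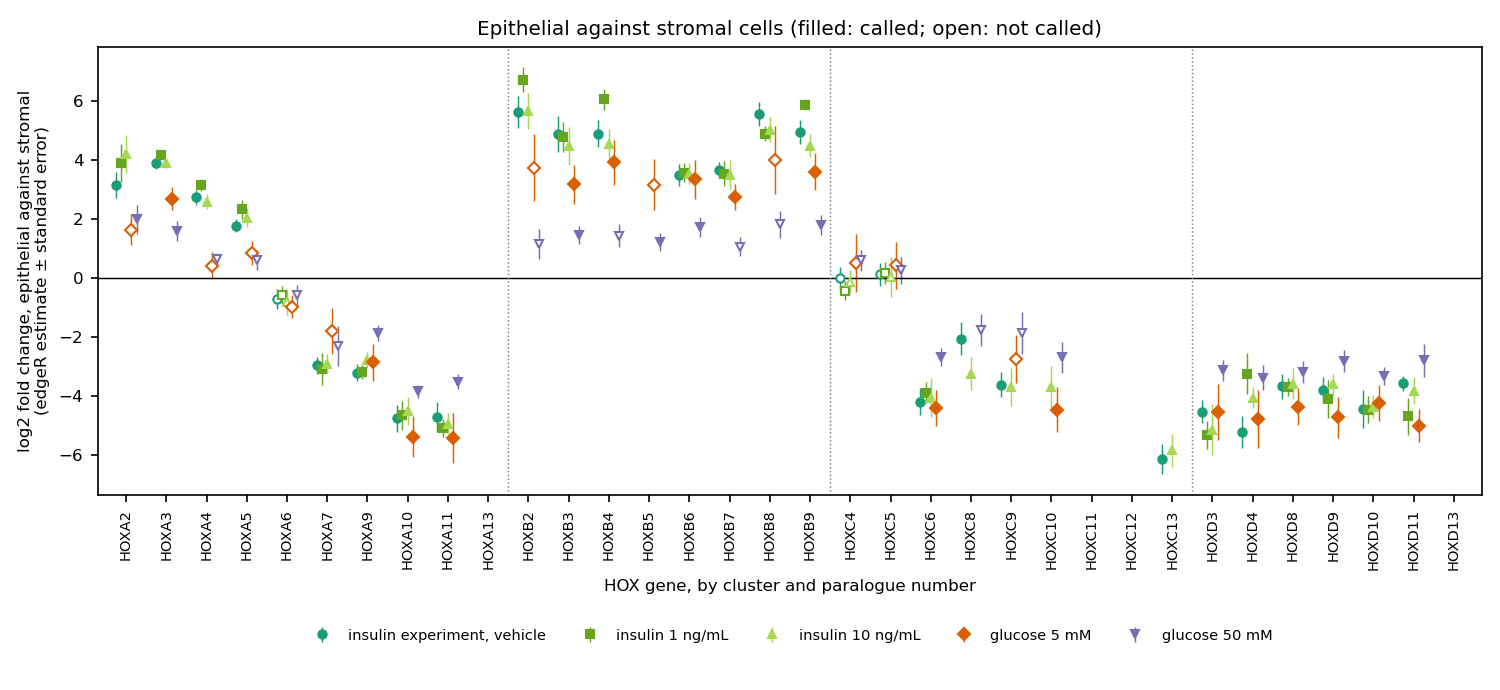
Log2 fold change of epithelial against stromal cells (edgeR estimate, with its standard error as bars) for HOX genes tested, in the 5 conditions (colours and symbols). Filled symbols were called and open symbols were not, and a gene with 3 or fewer reads in all 3 libraries of a cell type is left out at that condition. From left to right, HOXA turns from above 0 (HOXA2 to HOXA5) to below 0 (HOXA7 to HOXA11), HOXB lies above 0, and HOXC6 to HOXC13 and HOXD lie below 0.

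All 8 HOXB genes were called higher in epithelial cells in at least 3 comparisons, and HOXB was the only cluster with no gene called higher in stromal cells. Their median log2 fold change was 4.93 in the vehicle group, 5.40 at 1 ng/mL and 4.53 at 10 ng/mL insulin, 3.48 at 5 mM glucose and 1.45 at 50 mM glucose. HOXB2, HOXB3 and HOXB4 are known for the patterning of the hindbrain and neck. HOXB2 had 11.2 to 17.2 CPM (median 14.6) in epithelial and 0 to 0.681 CPM (median 0.161) in stromal libraries of the insulin experiment, where 3 stromal libraries were at 0. HOXB3 had 9.02 to 16.5 CPM (median 12.9) in epithelial and 0 to 1.14 CPM (median 0.437) in stromal libraries, and HOXB4 had 12.4 to 19.8 CPM (median 17.0) and 0.0807 to 1.14 CPM (median 0.35). The epithelial and stromal libraries did not overlap for any of these 3 genes. In the vehicle group, HOXB3 had a log2 fold change of 4.89 (SE 0.603) with an adjusted p of 0.0034 in the quasi-likelihood test of edgeR, and at 50 mM glucose 1.46 (SE 0.320) with an adjusted p of 0.0382.

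HOXB5 was counted with 111 to 142 reads in 3 epithelial libraries but with 1 to 3 reads in 3 stromal libraries at each condition of the insulin experiment. The ratio of its levels was 117 in the vehicle group, with a counting interval of 20.6 to 4650, and 47.4 (15.8 to 233) at 10 ng/mL insulin. The high number genes of this cluster were among the epithelial genes as well. HOXB8 had 24.8 to 31.4 CPM (median 28.4) in epithelial and 0.217 to 1.66 CPM (median 0.576) in stromal libraries of the insulin experiment, with a log2 fold change of 5.56 (SE 0.402) and an adjusted p of 0.00123 (edgeR's quasi-likelihood test) in the vehicle group. HOXB9, the last gene of the cluster analysed here, had 24.0 to 56.3 CPM (median 27.6) and 0.339 to 2.65 CPM (median 0.875), with a log2 fold change of 4.96 (SE 0.395) and an adjusted p of 0.00141. HOXB6 and HOXB7 had log2 fold changes of 3.5 (SE 0.381) and 3.67 (SE 0.270) in the vehicle group, and both had 0.433 CPM or more in every stromal library of that experiment. HOXB3, HOXB6 and HOXB9 were called in all 5 comparisons. In RefSeq's annotation HOXB3 overlaps HOXB4, HOXB5 and HOXB6, and HOXB9 overlaps HOXB8, and the strand setting of the counting is not given in the sources used here, so reads of these genes may be split between them.

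HOXA2 to HOXA5 were higher in epithelial cells in the insulin experiment, where 4 of 4 were called at each condition, with a median log2 fold change of 2.95, 3.54 and 3.25 at 0, 1 and 10 ng/mL insulin. HOXA3, known for the development of the pharyngeal organs, was the only one of the 4 called in all 5 comparisons. Its level was 36.6 to 53.8 CPM (median 46.5) in epithelial and 1.45 to 3.86 CPM (median 2.60) in stromal libraries of the insulin experiment, with a log2 fold change of 3.92 (SE 0.223) and an adjusted p of 0.000936 (edgeR's quasi-likelihood test) in the vehicle group. HOXA5, known for lung development, had 14.9 to 29.6 CPM (median 18.9) in epithelial and 2.66 to 7.57 CPM (median 4.30) in stromal libraries, and a log2 fold change of 1.78 (SE 0.223), adjusted p = 0.00351. In the glucose experiment, the libraries of HOXA4 and HOXA5 overlapped between the cell types, and neither was called. At 5 mM glucose HOXA4 had a log2 fold change of 0.42 (SE 0.457), with 4.72, 9.41 and 10.7 CPM in the 3 epithelial and 5.21, 4.46 and 5.55 CPM in the 3 stromal libraries. HOXA2, which is known for the hindbrain, had 2.39 to 3.15 CPM (median 2.63) in epithelial and 0 to 0.437 CPM (median 0.185) in stromal libraries of the insulin experiment and was called higher in epithelial cells in 4 comparisons. RefSeq's HOXA3 and HOXA5 overlap each other and HOXA4 or HOXA6, so reads of these genes may also be split.

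HOXA6, whose number lies between these genes and the stromal genes of its cluster, was not called. Its 9 epithelial libraries of the insulin experiment had 1.67 to 6.46 CPM (median 4.41) and the 9 stromal libraries 4.88 to 8.66 CPM (median 6.14), and these ranges overlapped. The log2 fold change was between -0.98 and -0.57 over the 5 comparisons, and the smallest adjusted p was 0.131 (edgeR's quasi-likelihood test). HOXA7 had 0.0878 to 0.895 CPM (median 0.557) in epithelial and 2.97 to 4.81 CPM (median 4.23) in stromal libraries, with a log2 fold change of -2.96 (SE 0.293) in the vehicle group.

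The genes of the reproductive tract axis were higher in stromal cells. HOXA9 had 1.70 to 4.01 CPM (median 2.19) in epithelial and 18.1 to 24.7 CPM (median 21.4) in stromal libraries of the insulin experiment, and 1.41 to 8.71 CPM (median 4.72) and 13.1 to 28.6 CPM (median 22.3) in the glucose experiment. HOXA10 had 0.31 to 2.31 CPM (median 1.45) in epithelial and 20.8 to 35.5 CPM (median 31.8) in stromal libraries of the insulin experiment, and 0.0741 to 1.71 CPM (median 0.982) and 10.6 to 25.7 CPM (median 19.4) in the glucose experiment. HOXA11 had 0.413 to 2.44 CPM (median 0.78) and 23.0 to 38.7 CPM (median 26.3) in the insulin experiment, and 0 to 2.14 CPM (median 1.05) and 9.60 to 33.6 CPM (median 16.3) in the glucose experiment. For each of these 3 genes every stromal library was above every epithelial library, the mixed one of replicate 3 at 50 mM included. Each was called in all 5 comparisons, with a log2 fold change between -3.21 and -1.87 for HOXA9, between -5.40 and -3.85 for HOXA10 and between -5.43 and -3.52 for HOXA11. In the vehicle group the values were -3.21 (SE 0.273, adjusted p = 0.00156), -4.77 (SE 0.447, adjusted p = 0.00189) and -4.73 (SE 0.504, adjusted p = 0.00246), in the quasi-likelihood test of edgeR. HOXA13 was low: its 9 stromal libraries of the insulin experiment had 0.789 to 1.34 CPM (median 1.08), and 7 of the 9 epithelial libraries were at 0. With 33 reads in the stromal and 1 read in the epithelial libraries of the vehicle group, the ratio of its levels was 34.4 (counting interval 5.77 to 1400), and at 10 ng/mL insulin, with 40 and 0 reads, it was at least 10.4-fold higher in stromal cells against a floor of 3 reads over the group.

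All HOXD genes that were tested were higher in stromal cells. HOXD3, HOXD4, HOXD8, HOXD9, HOXD10 and HOXD11 were each called higher in stromal cells in all 5 comparisons, with a median log2 fold change of -4.13, -4.29 and -3.95 at 0, 1 and 10 ng/mL insulin, -4.64 at 5 mM glucose and -3.17 at 50 mM glucose. The group holds low and high numbers alike. HOXD3 had 0 to 0.47 CPM (median 0.103) in epithelial and 3.84 to 7.80 CPM (median 5.85) in stromal libraries of the insulin experiment, and a log2 fold change of -4.54 (SE 0.388, adjusted p = 0.00157 in the quasi-likelihood test of edgeR) in the vehicle group. HOXD9, HOXD10 and HOXD11 are known for the limbs and the caudal part of the body. HOXD9 had 0 to 1.15 CPM (median 0.891) in epithelial and 8.02 to 11.5 CPM (median 9.04) in stromal libraries, HOXD10 had 0.103 to 2.16 CPM (median 0.696) and 14.4 to 18.1 CPM (median 16.3), and HOXD11 had 0 to 1.47 CPM (median 0.668) and 8.15 to 11.1 CPM (median 9.64). For all 6 genes the stromal libraries were above the epithelial libraries in both experiments, without overlap. HOXD13, known for the digits and external genitalia, was at 0 in all 15 epithelial libraries and had at most 0.273 CPM in stromal libraries, which is near the limit that a count of 0 allows. RefSeq's HOXD3 and HOXD4 overlap.

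In the HOXC cluster, the low numbers HOXC4 and HOXC5 were never called, and HOXC6 to HOXC10 and HOXC13 were called higher in stromal cells. The levels of HOXC4 and HOXC5 overlapped between the cell types, with 0.966 to 4.50 CPM (median 1.65) in epithelial and 1.54 to 2.66 CPM (median 2.12) in stromal libraries of the insulin experiment for HOXC4, and 0.62 to 1.99 CPM (median 0.966) and 0.48 to 1.59 CPM (median 0.968) for HOXC5. Their log2 fold changes were between -0.44 and 0.60, with standard errors from 0.324 to 0.978, and the smallest adjusted p was 0.286 (edgeR's quasi-likelihood test). HOXC6, known for the thorax and the mammary gland, was called higher in stromal cells in all 5 comparisons, with 0 to 0.895 CPM (median 0.497) in epithelial and 5.63 to 11.8 CPM (median 7.15) in stromal libraries of the insulin experiment and a log2 fold change of -4.21 (SE 0.460) in the vehicle group. HOXC10 was also called in all 5, with 0 to 0.42 CPM (median 0.0994) and 1.73 to 2.87 CPM (median 2.18). In the vehicle group it had 70 reads in stromal and 3 in epithelial libraries, a ratio of 24.4 (counting interval 8 to 121). HOXC8 and HOXC9 were called in the 3 comparisons of the insulin experiment, and HOXC9 was at 0 in the 3 epithelial libraries at 1 ng/mL insulin against 64 reads in the stromal libraries, at least 19.2-fold higher against the same floor of 3 reads. HOXC13, known for hair follicles and nails, had 6.47 to 10.7 CPM (median 9.53) in stromal libraries of the insulin experiment and 0 to 0.281 CPM in epithelial libraries, and was called in each of the 4 comparisons that tested it. HOXC11 and HOXC12 had at most 0.793 and 0.378 CPM in any library.

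Set side by side, paralogues of the same number did not always go to the same cell type. For number 2, HOXA2 and HOXB2 were both called higher in epithelial cells, in 4 and 3 comparisons. For number 5, the same held for HOXA5 and HOXB5, in 3 and 4. Among the genes with number 3, HOXA3 and HOXB3 were called higher in epithelial cells and HOXD3 in stromal cells in all 5 comparisons. Among those with number 4, HOXA4 and HOXB4 were called higher in epithelial cells, in 3 and 4 comparisons, HOXD4 in stromal cells in 5, and HOXC4 in none. For number 8, HOXB8 was called higher in epithelial cells in 3 comparisons, and HOXC8 and HOXD8 in stromal cells in 3 and 5. For number 9, HOXB9 was called higher in epithelial cells in 5 comparisons, and HOXA9, HOXC9 and HOXD9 in stromal cells in 5, 3 and 5. The genes numbered 10 to 13 that were called were all higher in stromal cells, and RefSeq lists HOXB13 as the only HOXB gene with such a number.

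**Figure D3:**
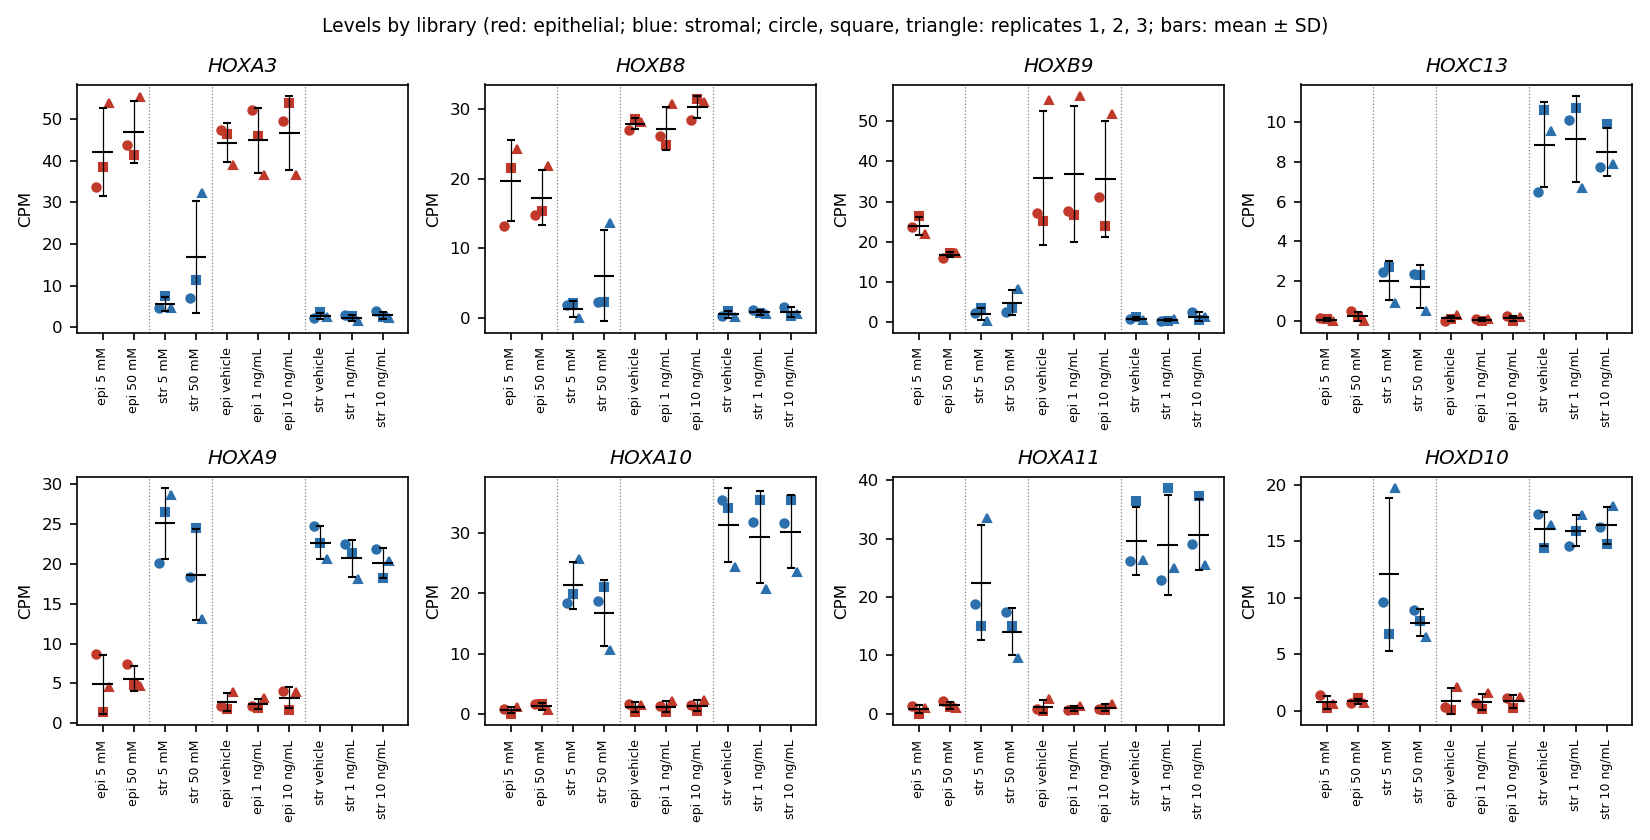
Level (CPM) of 8 HOX genes in each library, by group, with epithelial libraries in red, stromal libraries in blue, the replicate number as the symbol and the mean ± SD of 3 libraries as bars. HOXA3, HOXB8 and HOXB9 are high in epithelial and HOXC13, HOXA9, HOXA10, HOXA11 and HOXD10 in stromal libraries; replicate 3 of HOXB9 stands above 50 CPM in the insulin experiment, and HOXC13 is higher in the stromal libraries of the insulin than of the glucose experiment.

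Fewer HOX genes, and fewer of all genes, were called in the glucose than in the insulin experiment, and the difference between the experiments was not tested. In the insulin experiment the libraries of the cell types did not overlap for 29 of the 35 genes, 13 higher in epithelial and 16 in stromal cells, while 29.1% and 22.6% of all genes with a mean of at least 10 counts did so. In the glucose experiment they did not overlap for 8 genes higher in epithelial cells and 11 in stromal cells, with 12.6% and 10.5% of all genes. Without stromal replicate 3 at 50 mM glucose, these numbers were 11 and 15 (21.3% and 12.7% of all genes), and without epithelial replicate 2 at 5 mM they were 9 and 11 (16.9% and 11.9%). Leaving out these libraries was chosen after seeing the data. At 50 mM glucose, 20 HOX genes were called without replicate 3, 14 without replicate 2 and 0 without replicate 1, where 0 of all genes were called as well, and 10 without the replicate block, while 17 were called with all replicates and the block. At 5 mM glucose 19 to 22 were called with 1 replicate left out. The part of mixed cells in these counts was not tested.

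In stromal libraries, the level of the epithelial HOX genes was set beside the epithelial markers. Where the markers were at 5.56%, 0.0118% and 0.0912% of their epithelial mean (replicates 1 to 3 at 5 mM glucose), the HOXB sum was at 9.20%, 20.9% and 2.35% of its epithelial mean. At 50 mM, the markers were at 13.5%, 5.35% and 65.3% and the HOXB sum at 13.3%, 29.7% and 55.5%. In 7 stromal libraries of the insulin experiment the markers were under 1%, and there the HOXB sum was at 1.54 to 4.79% and HOXA2 to HOXA5 at 6.64 to 15.5% of their epithelial means. Reads of these genes were also present in stromal libraries where EPCAM, which encodes an epithelial adhesion protein, was at 0, such as replicate 2 at 5 mM glucose with a HOXB sum of 22.3 CPM. That library held KRT18 at 176 CPM, CDH1 at 1.19 CPM and 2820 CPM of smooth muscle and pericyte markers, mostly DES and CNN1. The part of these genes in the HOXB level was not tested. In epithelial libraries of the insulin experiment, the stromal markers were at 0.866 to 1.33% of their stromal mean in replicate 2, 2.99 to 3.58% in replicate 1 and 8.30 to 10.3% in replicate 3. The HOXD sum was at 1.17 to 2.56%, 5.68 to 6.26% and 10.7 to 11.2% in the same libraries, and the sum of HOXA9 to HOXA13 at 3.27 to 3.63%, 4.96 to 7.59% and 8.22 to 9.70%. The HOXD and HOXA9 to HOXA13 levels of these epithelial libraries were in the same order as the stromal markers when set by replicate number, and whether they came from stromal cells was not tested. The epithelial libraries of the glucose experiment were not in one order, such as 12.7% of the stromal markers with 6.97% of HOXD in replicate 1 and 9.02% with 14.9% in replicate 2, both at 50 mM.

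**Figure D4:**
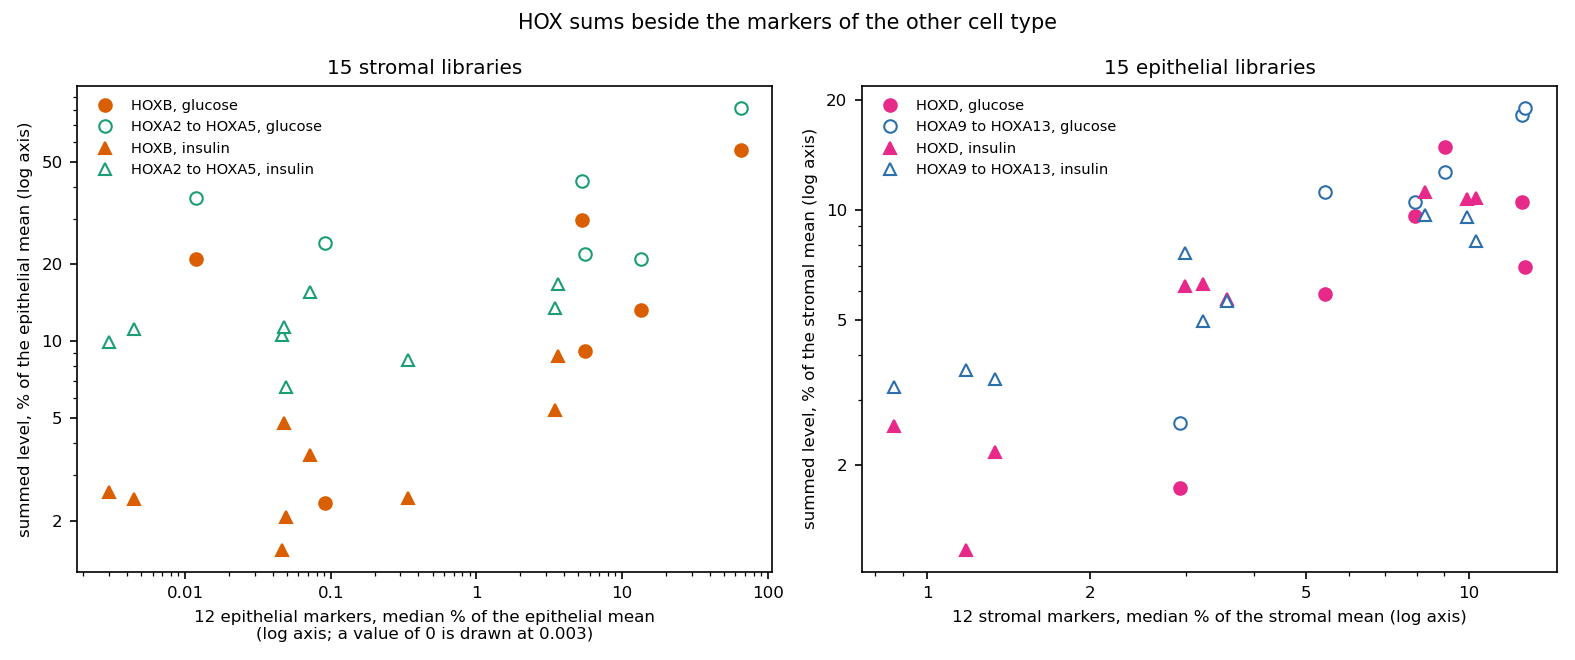
Left, for the 15 stromal libraries, the summed level of HOXB and of HOXA2 to HOXA5 as a percent of their epithelial mean against the median of 12 epithelial markers. Right, for the 15 epithelial libraries, the summed level of HOXD and of HOXA9 to HOXA13 as a percent of their stromal mean against the median of 12 stromal markers; all axes are log axes, circles are glucose and triangles insulin libraries. On the right, HOXD is higher in the insulin libraries with higher stromal markers, and on the left HOXB reaches 20.9% in a library whose markers are at 0.0118%.

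To ask whether glucose or insulin moved the HOX genes, each dose was compared with the lower dose or the vehicle within each cell type, in the same kind of fit. Over the 8 treatment comparisons, 178 tests of HOX genes were made and 0 were called by edgeR's quasi-likelihood test, and 0 by the DESeq2 Wald test. In epithelial cells, 21, 18, 19 and 18 HOX genes were tested for 50 against 5 mM glucose, 1 ng/mL insulin against vehicle, 10 ng/mL against vehicle and 10 against 1 ng/mL, and 0, 0, 0.124 and 0% of all genes were called. In stromal cells, 29, 24, 25 and 24 were tested, and 0, 0.0157, 0 and 0.0313% of all genes were called. These shares are edgeR's, and for glucose the number of all genes called moved with the setting: in stromal cells the Wald test called 195 genes and edgeR 50 without replicate 1, and in epithelial cells edgeR called 221 without replicate 2, with 0 HOX genes in each. At an unadjusted p under 0.05, 5 of the 178 tests passed, while 1.55, 2.95, 6.96 and 4.44% of all genes passed in the epithelial and 4.87, 5.16, 2.79 and 3.91% in the stromal comparisons, in the same order. The insulin comparisons share libraries, since the vehicle and each dose enter 2 of them.

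The stromal comparison of 50 with 5 mM glucose had the largest HOX fold changes of these 8. All 8 HOXB genes had higher fitted levels at 50 mM, with a median log2 fold change of 1.60, and all 6 HOXD genes tested had lower ones, with a median of -0.54, and none of them was called. The HOXB sum was 9.77, 22.3 and 2.50 CPM at 5 mM and 14.1, 31.5 and 59.0 CPM at 50 mM in replicates 1 to 3, higher at 50 mM in 3 of 3 pairs, although the libraries of the 2 doses overlapped. The epithelial markers were higher at 50 mM in the same 3 pairs, going from 5.56 to 13.5%, from 0.0118 to 5.35% and from 0.0912 to 65.3% of their epithelial mean, and their part in the HOXB levels was not tested. Without replicate 3, the median log2 fold change was 0.52 for HOXB and -0.02 for HOXD. HOXB7 had the smallest p of the 29 genes, with 0.912, 2.45 and 1.28 CPM at 5 mM and 2.44, 4.84 and 6.14 CPM at 50 mM, higher in 3 of 3 pairs, a log2 fold change of 1.47 (SE 0.334) and an adjusted p of 0.696 in the quasi-likelihood test of edgeR, and 1.11 without replicate 3. HOXA10 had 18.4, 19.9 and 25.7 CPM at 5 mM and 18.8, 21 and 10.6 CPM at 50 mM, and its log2 fold change of -0.45 turned to 0.02 without replicate 3. In epithelial cells, the 8 HOXB genes had log2 fold changes from -0.50 to -0.02, with a median of -0.26 that was 0.01 without replicate 2, whose 5 mM library had a HOXB sum of 147 CPM beside 85.7 to 117 CPM in the other 5. HOXB9 was lower at 50 mM in 3 of 3 pairs without overlap, with 23.6, 26.4 and 22.0 CPM at 5 mM and 16.1, 17.3 and 17.2 CPM at 50 mM, a log2 fold change of -0.50 (SE 0.237) and an adjusted p of 0.804 in the quasi-likelihood test of edgeR. For a difference of the glucose effect between the cell types, 0 of 31 HOX genes tested and 0% of all genes were called by edgeR's quasi-likelihood test, and HOXB7 and HOXC6 passed at an unadjusted p under 0.05, as did 7.53% of all genes. The Wald test of DESeq2 called 234 genes for this difference and edgeR 307 without replicate 1, with 0 HOX genes in both, and 9 of 31 HOX genes passed an unadjusted p under 0.05 with DESeq2. The stromal minus the epithelial change was 1.67 (SE 0.414, adjusted p = 0.631) for HOXB7 and -1.92 (SE 0.803, adjusted p = 0.660) for HOXC6.

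With insulin, no HOX gene was called. Between 1 ng/mL and vehicle, the log2 fold changes lay between -0.39 and 0.25 in epithelial cells, and stromal cells had values from -0.55 to 0.28. Between 10 ng/mL and vehicle, they ran from -0.46 to 0.30 in epithelial cells and from -0.31 to 0.48 in stromal cells. Between 10 and 1 ng/mL, stromal cells had values from -0.32 to 1.28, the highest for HOXB9. HOXA5 in stromal cells had 7.43, 6.07 and 4.12 CPM with vehicle and 5.09, 4.07 and 2.66 CPM at 1 ng/mL, lower in 3 of 3 pairs, with a log2 fold change of -0.55 (SE 0.177) and an adjusted p of 0.870 in the quasi-likelihood test of edgeR. At 10 ng/mL it had 7.57, 4.30 and 3.07 CPM. HOXB9 in stromal cells had 0.463, 0.339 and 0.888 CPM at 1 ng/mL and 2.65, 0.526 and 1.25 CPM at 10 ng/mL. Its log2 fold change was 1.28 (SE 0.452) with an adjusted p of 1, which was 0.53 without replicate 1, where the epithelial markers were at 3.61% at 10 ng/mL and 0.0476% at 1 ng/mL. In epithelial cells between 10 and 1 ng/mL, HOXB7 had a log2 fold change of 0.27 (SE 0.106) with an adjusted p of 0.983. The HOXA10 level in stromal cells was 31.3 ± 6.15 CPM with vehicle, 29.3 ± 7.57 CPM at 1 ng/mL and 30.3 ± 6.03 CPM at 10 ng/mL (SD, n = 3), and that of HOXA11 was 29.6 ± 5.86, 28.9 ± 8.60 and 30.7 ± 6.09 CPM. The effect of 1 ng/mL insulin passed an unadjusted p under 0.05 for a difference between the cell types in 5 of 32 HOX genes tested, HOXA5, HOXC8, HOXC9 and HOXD4 among them, with 5.5% of all genes, and that of 10 ng/mL in 0 of 32, with 4.06% of all genes, and 0 genes were called for either dose. Some of these genes had few epithelial reads. HOXC8 and HOXC9 had 2 and 0 reads over the 3 epithelial libraries at 1 ng/mL. HOXD4 had an epithelial mean of 0.141 CPM with vehicle and 0.597 CPM at 1 ng/mL.

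**Figure D5:**
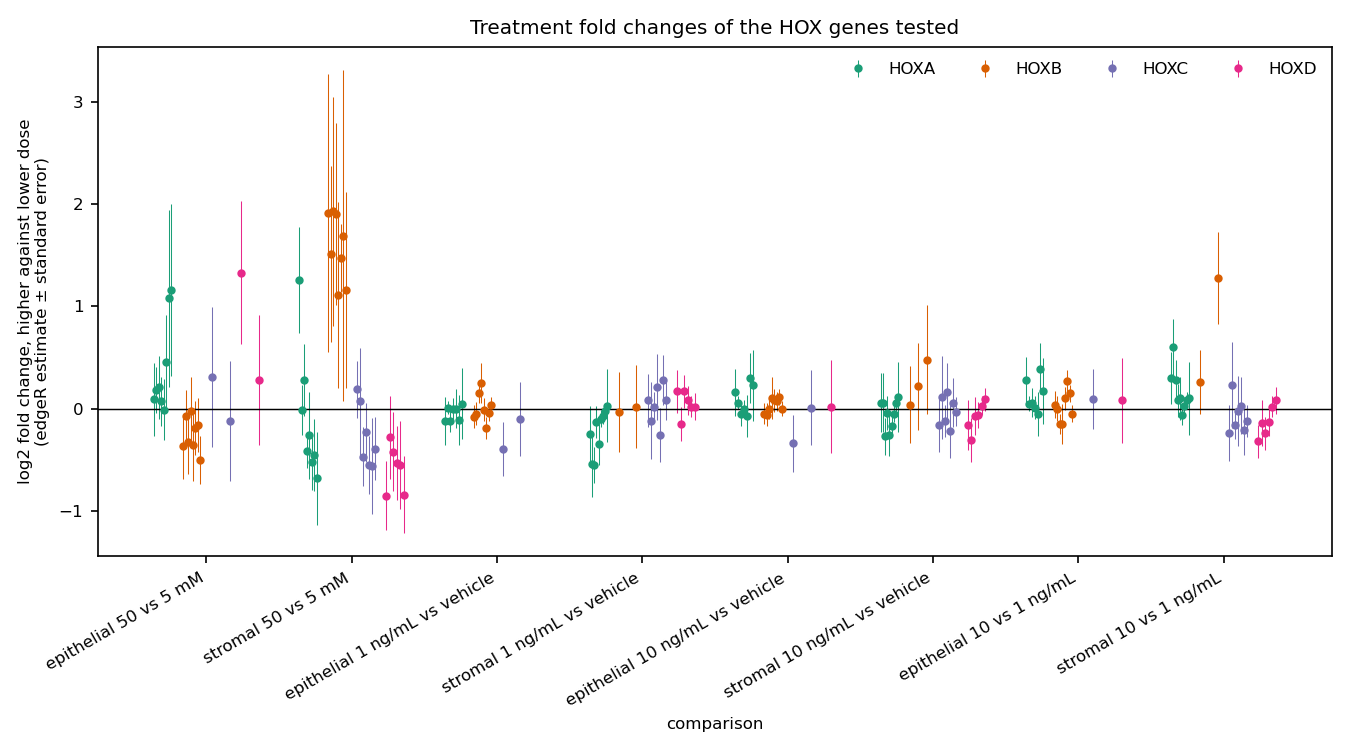
Log2 fold change of the higher against the lower dose (edgeR estimate, with its standard error as bars) for HOX genes tested in the 8 treatment comparisons, coloured by cluster. None was called, the points of the insulin comparisons lie between -0.55 and 0.60 apart from HOXB9 at 1.28 in stromal cells at 10 against 1 ng/mL, and in the stromal glucose comparison all 8 HOXB genes lie above 0 and all 6 HOXD genes below 0.

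In the insulin experiment, the spread between replicate numbers was larger than that between doses for most HOX genes, as for most genes. In epithelial cells, 16 of 19 HOX genes with a mean of at least 10 counts had a larger range between the means of the replicate numbers than between the means of the doses, on the log2(CPM + 0.5) scale, as had 87.9% of all genes. In stromal cells it was 22 of 25, with 84.1% of all genes. In the glucose experiment it was 19 of 22 in epithelial cells, with 89.8% of all genes, but 16 of 29 in stromal cells, with 86.1%. The median range between replicate numbers was 0.664 for HOX and 0.328 for all genes in epithelial cells, and 0.365 and 0.292 in stromal cells of the insulin experiment. HOXB9 in epithelial cells is an example, with 55.2, 56.3 and 51.8 CPM in replicate 3 at 0, 1 and 10 ng/mL insulin, and 24.0 to 31.1 CPM in the 6 libraries of replicates 1 and 2. HOXA10 had 24.3, 20.8 and 23.6 CPM in stromal replicate 3 and 31.7 to 35.5 CPM in replicates 1 and 2, and HOXA11 had 36.4, 38.7 and 37.4 CPM in replicate 2 and 23.0 to 29.1 CPM in replicates 1 and 3. In the glucose experiment, HOXC6 had 14.5 and 15.9 CPM in stromal replicate 2 at 5 and 50 mM and 2.00 to 4.69 CPM in the other 4 stromal libraries, and HOXC8 had 5.22 and 5.73 CPM beside 0.207 to 0.912 CPM. The same replicate had the highest sum of smooth muscle and pericyte markers, 2820 and 2960 CPM beside 649 to 1560 CPM in the other 4. That sum was mostly DES and CNN1, and its part in the HOXC levels was not tested.

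Genes around the HOX clusters and those that work with HOX proteins were taken from lists. Of the 9 cofactors, MEIS2, MEIS3 and PKNOX2, which help HOX proteins bind DNA, were called higher in stromal cells in all 5 comparisons. MEIS2 had 0.517 to 3.99 CPM (median 1.65) in epithelial and 20.7 to 37.7 CPM (median 22.6) in stromal libraries of the insulin experiment, and MEIS3 had 1.88 to 4.97 CPM (median 3.51) and 25.7 to 37.1 CPM (median 29.3). PBX3 was called higher in stromal cells in 3 comparisons, with a median log2 fold change of -1.39, and PBX2 higher in epithelial cells in 3, with 0.44. In the vehicle group 1 of 8 cofactors tested was called higher in epithelial and 4 in stromal cells, beside 27.8% and 27.3% of all genes. Of 22 chromatin regulators, 4 were called higher in epithelial cells and 1 in stromal cells in the vehicle group, 5 and 2 at 1 ng/mL, 4 and 2 at 10 ng/mL insulin, and 0 at both glucose doses, a smaller share than that of all genes in each comparison. RNF2, a Polycomb ubiquitin ligase, had 99.6 to 155 CPM (median 129) in epithelial and 27.8 to 38.7 CPM (median 31.7) in stromal libraries of the insulin experiment, and JARID2, a Polycomb partner, had 24.8 to 34.3 CPM (median 32.9) and 7.75 to 10.0 CPM (median 9.13). EED, another Polycomb gene, was called higher in stromal cells in 3 comparisons, with a median log2 fold change of -0.69.

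Some neighbours of the clusters differed between the cell types, about as often as genes in general. In RefSeq's gene order SKAP1 lies beyond HOXB1, and it had 21.9 to 28.8 CPM (median 23.8) in epithelial and 0 to 1.09 CPM (median 0) in stromal libraries of the insulin experiment, and was called higher in epithelial cells in 4 comparisons. SKAP2 lies next to the HOXA cluster and was called higher in epithelial cells in 3, with 113 to 192 CPM (median 125) and 31.7 to 49.3 CPM (median 44.5). HIBADH lies beyond HOXA13 and was called higher in stromal cells in 3, with 47.4 to 54.8 CPM (median 49.4) and 54.6 to 75.0 CPM (median 68.4). LNPK lies beyond HOXD13 and was called higher in stromal cells in all 5, with 21.7 to 31.9 CPM (median 29.4) and 109 to 122 CPM (median 115). MTX2, beyond HOXD1, was called in none, with 21.7 to 26.4 CPM (median 23.7) and 21.2 to 29.1 CPM (median 24.2). CALCOCO1, beyond HOXC13, went the other way from its HOXC neighbours, called higher in epithelial cells in 3 comparisons, and CBX5, beyond HOXC4, was called in none. Of 8 neighbours tested, 3 were called higher in epithelial and 2 in stromal cells in the vehicle group, where 27.8% and 27.3% of all genes were.

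Retinoic acid is known to switch on HOX genes in order, and genes of its signalling were called in both directions, about as often as all genes in the vehicle group. ALDH1A3, which makes retinoic acid, was called higher in epithelial cells in all 5 comparisons, with 1360 to 3210 CPM (median 2060) in epithelial and 138 to 343 CPM (median 174) in stromal libraries of the insulin experiment. The receptors RXRA and RARG were called higher in stromal cells in all 5, with a median log2 fold change of -2.08 and -1.84, and ALDH1A1 in 3, with -1.33. In the vehicle group, 3 of 11 retinoid genes tested were called higher in epithelial and 3 in stromal cells, beside 27.8% and 27.3% of all genes. Larger shares than those of all genes were called higher in stromal cells with glucose. At 5 mM, 1 of 11 was called higher in epithelial and 5 in stromal cells, beside 10.5% and 10.6% of all genes. At 50 mM it was 1 and 6 of 12, beside 6.39% and 10.9%. Of 6 genes named as uterine targets of HOX proteins, PTGER4, a prostaglandin receptor, was called higher in epithelial cells in all 5 comparisons, EMX2 and FKBP4 in 3, PTGER3 in 2, and ITGB3, an integrin, higher in stromal cells in 3, with 221 to 352 CPM (median 324) in epithelial and 729 to 916 CPM (median 761) in stromal libraries of the insulin experiment. With vehicle, 3 of the 5 targets tested were called higher in epithelial and 1 in stromal cells, beside 27.8% and 27.3% of all genes. IGFBP1 was not tested, with at most 3.05 CPM in any library. Of 10 regulators of the Müllerian duct, 9 were matched, 7 were tested and all 7 were called in every comparison. Beside them, 54.4 to 58.9% of all genes were called in the insulin comparisons and 17.3 to 21.1% in the glucose comparisons. Higher in epithelial cells were 4 of the 7, PAX2, PAX8 and WNT7A among them, and WNT4, WNT5A and TBX3 were higher in stromal cells. WNT7A had 51.0 to 63.3 CPM (median 58.4) in epithelial and 0 to 2.95 CPM (median 0) in stromal libraries of the insulin experiment, and WNT5A had 14.2 to 47.3 CPM (median 45.3) and 187 to 239 CPM (median 221). None of the genes of these lists was called in any of the 8 treatment comparisons.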

How the data were processed

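Total RNA of the cells had been made into stranded libraries and sequenced as single-end reads. According to the methods and the submitters' processing notes, the authors trimmed the reads with Cutadapt, filtered them with fastq_quality_filter, aligned them to the Ensembl cow genome with Rsubread and assigned uniquely aligned reads to genes with featureCounts, and deposited the raw counts per gene in a table for each experiment. The strand setting of the counting and the genome build are not given in the sources used here. The deposited comparison tables also hold the authors' normalised means, fold changes and p-values from DESeq2, of which only the gene symbol and biotype were used, so that 27607 genes had counts.

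The members and all gene lists, including the split of HOXA and HOXC by number, were chosen with earlier results of these data known. Genes were tested with edgeR 4.0.16 in R 4.3.3 (TMM factors, filterByExpr, quasi-likelihood F test, Benjamini-Hochberg adjustment over all genes tested). A fit held the 6 libraries of a comparison with the replicate number as a block, as in the paired design of the methods, and the difference of an effect between cell types was fitted over 12 or 18 libraries with the replicate number within cell type as the block. A gene was called at an adjusted p under 0.05 and a log2 fold change beyond 0.1, and its standard error is the log2 fold change divided by the root of F. Deviations of same-numbered libraries from their group means correlated over genes with r from -0.10 to 0.83. In stromal cells at 50 against 5 mM glucose, r was 0.30, 0.74 and 0.17 for replicates 1 to 3. There, replicate 1 at 5 mM correlated best with replicate 3 at 50 mM. The value of -0.10 was that of stromal replicate 2 at 10 ng/mL insulin against vehicle. The pairing by number is thus less certain in these 2 comparisons. Between the cell types r was also low, from 0.04 to 0.52, with the smallest value at 5 mM glucose. The same number correlated best in each cell type comparison. CPM uses the library total, no gene lengths were at hand, and levels are therefore compared within a gene only. Counting intervals are exact 95% intervals of a ratio of summed reads and, like the floor of 3 counts, cover counting error only. Members were given in detail by 2 rules: HOXA9, HOXA10, HOXA11, HOXA13, HOXD9, HOXD10, HOXD11 and HOXD13 whatever their values, and the 10 members with the largest median cell type difference among those tested in all 5 comparisons and called in at least 3. Up to 6 genes of a list were named, those with the largest median difference among genes called in at least 3 comparisons; other members and MTX2, CBX5, PTGER3, IGFBP1, MSX2 and EN1 were named after their values were seen. All libraries held different values. The fits were also run on simulated counts with a single spread for all genes and no differences between replicate numbers. Only well counted genes were changed there, so those runs do not cover mixed libraries or genes with few reads. Alternatives were DESeq2 size factors, every gene with at least 1 count, no replicate block, the DESeq2 1.42.0 Wald test, all libraries of an experiment in a single fit, and each replicate left out. Some genes that enter the counts are not reported here by name.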

Additional observations from a re-analysis of the deposited data

How the results depend on the processing

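Over the alternatives run, the number of HOX genes called between the cell types was 27 to 29 with vehicle (29 in the text), 28 to 29 at 1 ng/mL insulin (28), 27 to 29 at 10 ng/mL insulin (28) and 19 to 26 at 5 mM glucose (18). At 50 mM glucose it was 17 with the replicate block and 10 without the block, the pairing by replicate number, and it ranged from 0 (without replicate 1) to 20 (without replicate 3) when a replicate was left out; the 0 came with 0 of all genes called from 4 libraries, and the cause was not tested. Without the block, no other total of HOX genes called moved by over 1.5 times. The number of all genes called at 50 mM was 2397, and 1088 without the block, 3897 without replicate 3, 3171 with every gene of at least 1 count, 3571 with DESeq2 and 0 without replicate 1. At 5 mM it was 2944, and 5527 with all libraries in a single fit. No HOX gene was called for a treatment under any alternative run. Of all genes, 0 to 16 were called per treatment comparison in the text and 0 to 221 over the alternatives, and for a difference of a treatment effect between cell types 0 and 0 to 307. Of the values of single genes, 520 between cell types kept their direction and their side of the threshold, 24 were called only in the alternative and 23 only in the text; between treatments 70 kept both, and HOXA10 in stromal cells at 50 against 5 mM glucose went from -0.45 to 0.02 without replicate 3 (-0.71 to 0.02 with each replicate left out). HOXB9 in stromal cells at 10 against 1 ng/mL insulin did not pass the filter on low counts without replicate 3. Genes with a few reads per library, such as HOXA13, HOXC11, HOXC12 and HOXD13, are limited by depth.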

Other observations

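The ParaHox and NK homeobox genes are relatives of the HOX genes outside the 4 clusters. Of the 14 on the list, 6 were matched and MSX1 and MSX2 were tested. MSX1, which is known in the mouse uterus for its part in implantation, was called higher in epithelial cells in all 5 comparisons, with 225 to 312 CPM (median 281) in epithelial and 7.11 to 21.2 CPM (median 9.36) in stromal libraries of the insulin experiment. MSX2 was called in none, with 0.207 to 2.12 CPM (median 1.31) and 1.54 to 3.53 CPM (median 2.32). EN1 was not tested, and its largest levels were 0.661 CPM in epithelial and 16.3 CPM in stromal libraries, both in the glucose experiment.

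HOXC13 had 0.483 to 2.70 CPM (median 2.35) in the 6 stromal libraries of the glucose experiment and 6.47 to 10.7 CPM (median 9.53) in the 9 of the insulin experiment, which did not overlap. The glucose and insulin libraries come in separate tables and no group is shared, so this difference was not tested and the experiment cannot be told apart from the medium. The summed level of HOXC6 to HOXC13 in stromal replicate 2 of the glucose experiment was 190% and 200% of the stromal mean at 5 and 50 mM, and 25.5 to 75.1% in the other 4 libraries, beside a DCN level of 677 and 674 CPM in replicate 2 and 581 to 1720 CPM in the others.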
